A study of Mus musculus with 6 samples.

Results

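Polyamine and arginine metabolism was followed through 10 genes: Ass1, Arg2, Odc1, Amd1, Srm, Sms, Azin1, Oaz1, Oaz2 and Sat1. They were picked by name, with their values in this comparison already known, from the 55401 genes of the series. Differences between the groups in these 10 genes are therefore given as a description, with no test. The cells were mouse bone-marrow-derived macrophages grown for 7 days in medium containing L929 culture medium. In the L-OHP group, 3 samples received 5 µM L-OHP (oxaliplatin, a platinum chemotherapy drug) for 12 h. In the L-OHP+FUC group, 3 samples received fucoidan, a sulfated seaweed polysaccharide (250 µg/ml, 12 h), followed by the same 5 µM L-OHP for 12 h. Both groups were thus exposed to the drug, and macrophages without it were not analysed here.

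Polyamines (putrescine, spermidine and spermine) are small positively charged molecules that bind nucleic acids and are needed for growth and translation. Arginase splits arginine into ornithine and urea, and ornithine decarboxylase (Odc1) turns ornithine into putrescine. S-adenosylmethionine decarboxylase (Amd1) supplies the aminopropyl groups with which Srm makes spermidine and Sms makes spermine. Antizymes (Oaz1, Oaz2) bind the decarboxylase and send it to the proteasome, and the antizyme inhibitor Azin1, a relative of the decarboxylase without its activity, takes antizyme away from it. Sat1 acetylates spermidine and spermine, which are then exported or oxidized. In macrophages, arginine is shared between arginase and the inducible nitric oxide synthase, and Ass1 with Asl rebuilds arginine from citrulline.

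With fucoidan before the drug, mRNA of Odc1, Ass1, Arg2 and Srm stood higher and mRNA of Sat1 stood lower than with L-OHP alone, with no overlap between the groups. Levels are in FPKM, fragments scaled to transcript length and to the mapped fragments of the library, so that genes can be set beside each other. The ratio of mean FPKM, L-OHP+FUC to L-OHP, was 1.77 for Odc1, 1.63 for Ass1, 1.94 for Arg2, 1.32 for Srm and 0.517 for Sat1. Amd1, Sms, Azin1, Oaz1 and Oaz2 overlapped between the groups. All 10 members passed the filter on low values. Groups did not overlap for 4 members as higher and 1 as lower, against 16.1% and 30.9% of the 12084 tested genes, or 47.0% in either direction. Since the members were chosen with these values known, nothing is read from that count.

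**Figure D1:**
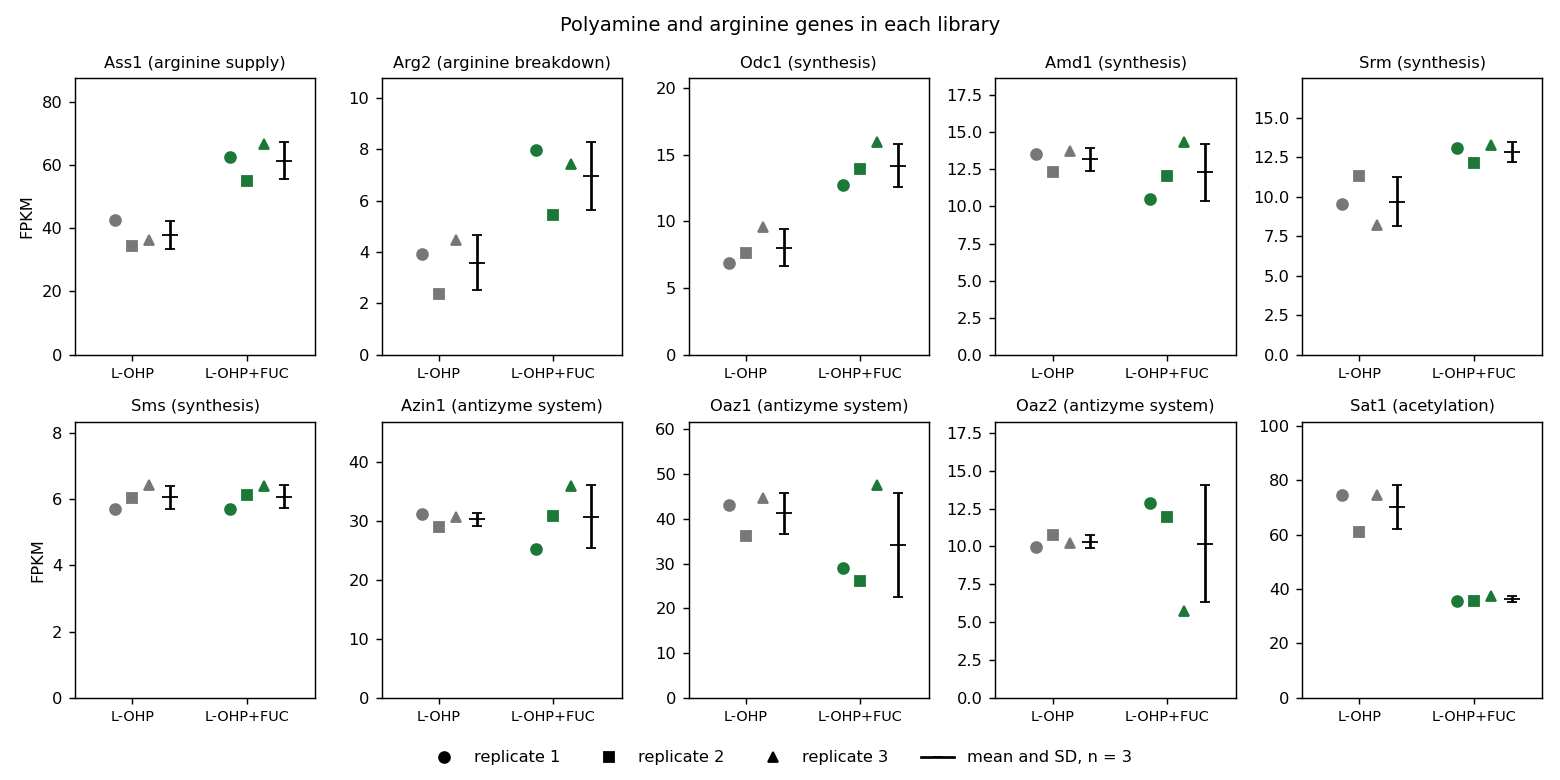
FPKM (vertical axes, from 0) of the 10 members in each of the 6 libraries, grey for L-OHP and green for L-OHP+FUC, with the symbol giving the replicate and bars the mean and SD of 3. Odc1, Ass1, Arg2 and Srm are higher in every green library, Sat1 lower, and the antizymes Oaz1 and Oaz2 spread widely among the green libraries.

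Markers of macrophages were present, all 8 of 8 with a mean of at least 1 FPKM. T cell markers Cd3d, Cd3e, Cd3g and Cd2 and the neutrophil markers Ly6g and Retnlg were listed at 0 in all 6 libraries. Of the 8 neutrophil markers, 2 had a mean of at least 1 FPKM, S100a8 and Camp. S100a8 ranged from 2.41 to 2.89 FPKM with L-OHP and from 3.72 to 4.71 FPKM with L-OHP+FUC, while Camp overlapped between the groups. Summed FPKM of the 8 neutrophil markers was 3.79 to 4.26 with L-OHP and 5.45 to 6.35 with L-OHP+FUC. The sum of the 8 macrophage markers was 12603 to 17957 and 13574 to 14559, most of it from Lyz2 (10005 to 15185 FPKM over the 6 libraries). Singly, Adgre1, Mertk and Fcgr1 were lower and Csf1r and Cd14 higher with L-OHP+FUC, without overlap. Cd68, Lyz2 and Itgam overlapped between the groups. The part of these markers in the results was not tested. Of the other lists, 0 of 5 markers had a mean of 1 FPKM or more for T cells, B cells, dendritic cells, mast cells and basophils, and erythroid cells, and 3 of 5 for fibroblasts (summed 4.37 to 10.2 and 6.66 to 6.71 FPKM). Steps between low FPKM values implied 15.8 to 18.7 M fragments per library, although only 27.3% to 36.1% of those values were whole within 0.03 reads. Pearson's r across tested genes, which are not independent replicates, was 0.968 to 0.988 within groups and 0.950 to 0.965 between them. Genes at 1 FPKM or more numbered 10711 to 10813 with L-OHP and 9841 to 10188 with L-OHP+FUC, and genes listed at 0 numbered 35234 to 35354 and 36343 to 36744; the part of this difference in the results was not tested. Over all tested genes the median log2 fold change stood at -0.10, and it was -0.010 after median ratio rescaling, 0.034 after quantile normalization and 0.0093 after loess adjustment for the GC content and length of transcripts. Whether replicates came from separate cultures or mice is not stated in the labels, and the p-values cover no more than the spread among these libraries, possibly technical. In RNA of whole cultures, fewer cells of a type and less RNA per cell cannot be told apart.

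Sequence upstream of the genes that begin synthesis and acetylation is shown because Odc1 and Sat1 stood apart in opposite directions. The bases are from the RefSeq promoter table (GRCm38.p6), end before the first annotated start, and carry GC boxes (GGGCGG, either strand) in capitals. The Odc1 stretch is chr12:17544623-17544793 on the plus strand and the Sat1 stretch chrX:155216450-155216699 on the minus strand.
Odc1: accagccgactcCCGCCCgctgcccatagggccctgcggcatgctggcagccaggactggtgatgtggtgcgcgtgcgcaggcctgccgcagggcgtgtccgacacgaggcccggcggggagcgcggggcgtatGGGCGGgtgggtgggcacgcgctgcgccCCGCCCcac
Sat1: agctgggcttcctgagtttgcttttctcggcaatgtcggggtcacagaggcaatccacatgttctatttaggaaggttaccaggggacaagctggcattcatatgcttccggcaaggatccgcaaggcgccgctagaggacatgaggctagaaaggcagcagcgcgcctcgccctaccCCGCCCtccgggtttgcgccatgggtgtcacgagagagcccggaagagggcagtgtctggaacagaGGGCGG

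In windows of 300 bases around the gene start, the GC box was found 4 times for Odc1, with 3 of them in the stretch shown, and 2 times for Sat1, and 35.7% of 32851 RefSeq promoters hold at least 1. Of the 10 members, 7 had an entry in that table (Ass1, Oaz2, Amd1, Oaz1, Odc1, Sat1 and Sms). The E-box CACGTG, the letters that MYC and related factors bind, was present for Ass1 and in 1 of the windows of Sms, and in 7.15% of all promoters. The window of Odc1 held none, and sequence beyond the 300 bases was not searched. The antioxidant response core TGACNNNGC was present for Oaz1 and in 12.4% of all promoters. All motifs were searched on both strands, and in the members no match of one overlapped a match of another. Ass1 is shown around its E-box (capitals) at chr2:31470222-31470251, plus strand, a stretch that GENCODE M21 places after the gene's first start.
Ass1: cgcgcccgtcccCACGTGtcccaggttcct

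The antizymes are made by a shift of the reading frame at a stop codon, which polyamines favour, so their mRNA level is only a part of their control. The site is shown for both because the data hold the mRNA of both and no measure of the shift. The last codon of the first frame and the stop codon TGA are in capitals, from GENCODE M21 transcripts (GRCm38, plus strand, chr10:80828274-80828315 for Oaz1 and chr9:65686251-65686292 for Oaz2).
Oaz1: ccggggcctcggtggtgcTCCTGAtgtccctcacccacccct
Oaz2: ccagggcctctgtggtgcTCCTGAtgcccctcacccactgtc
Across these 42 bases, 35 were identical between the pair.

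Ass1, argininosuccinate synthase, joins citrulline to aspartate on the way to arginine and lies on chromosome 2 (31470207 to 31520672, mm10, plus strand). It was listed at 42.7, 34.4 and 36.2 FPKM in L-OHP replicates 1 to 3, while the L-OHP+FUC replicates stood at 62.7, 55.0 and 66.5 FPKM. Every L-OHP+FUC library lay above every L-OHP library, with means of 37.8 ± 4.40 and 61.4 ± 5.86 FPKM (SD, 3 libraries). The log2 fold change, on the log2(FPKM + 1) scale used throughout, was 0.69 (standard error, SE, 0.12) and lay at or above that of 98.1% of tested genes. Its partner Asl, which releases arginine, stood at 7.41, 6.55 and 6.64 FPKM with L-OHP and 9.50, 7.55 and 7.33 FPKM with L-OHP+FUC and did not pass the test (log2 fold change 0.21, SE 0.12, limma adjusted p = 0.217). Here and for other genes outside the 10, p was adjusted over all tested genes by Benjamini-Hochberg, and a gene passed at an adjusted p under 0.05. The ratio of Ass1 to Asl in FPKM, which library scaling does not touch, averaged 5.49 ± 0.262 (SD, 3 libraries) for L-OHP and 7.65 ± 1.28 for L-OHP+FUC.

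Arg2, the mitochondrial arginase, lies on chromosome 12 (79130777 to 79156301, plus strand) and had the lowest mean level of the 10 members. It read 3.91, 2.38 and 4.48 FPKM in the L-OHP replicates and 7.96, 5.45 and 7.45 FPKM in the L-OHP+FUC replicates. The groups did not overlap, although replicate 2 was the lowest of each. Means were 3.59 ± 1.09 and 6.95 ± 1.33 FPKM (SD, 3 libraries), with a log2 fold change of 0.81 (SE 0.21). Its last 285 bases overlap Vti1b, a gene for a vesicle fusion protein on the opposite strand at 33.8 and 27.7 FPKM (log2 fold change -0.28, SE 0.10). Without a stated use of strand, reads of the overlap cannot be told apart.

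Arg1, the cytosolic arginase that marks alternatively activated macrophages, was listed at 0.514, 0.0241 and 0.330 FPKM with L-OHP and 0.164, 0.313 and 0.0743 FPKM with L-OHP+FUC and was too low to be tested. Arg2 was thus the arginase with the higher level in every library. Nos2, the inducible nitric oxide synthase that competes for arginine, ranged from 1.79 to 6.91 FPKM with L-OHP and from 3.91 to 5.36 FPKM with L-OHP+FUC (log2 fold change 0.20, 95% interval -0.67 to 1.06, limma adjusted p = 0.713).

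Odc1, the rate-limiting enzyme that makes putrescine, lies on chromosome 12 (17544794 to 17551505, plus strand). Its levels were 6.90, 7.62 and 9.56 FPKM in the L-OHP replicates, against 12.7, 13.9 and 16.0 FPKM for L-OHP+FUC. The lowest L-OHP+FUC library lay above the highest L-OHP library. Means were 8.03 ± 1.37 and 14.2 ± 1.64 FPKM (SD, 3 libraries), and the log2 fold change of 0.76 (SE 0.14) lay at or above that of 98.7% of tested genes. With 1 library left out it ranged from 0.67 to 0.88, and it was 0.71 after adjustment for GC and length.

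Amd1, which decarboxylates S-adenosylmethionine for the later steps, showed no such separation. It read 13.5, 12.3 and 13.7 FPKM with L-OHP and 10.5, 12.1 and 14.3 FPKM with L-OHP+FUC, so that L-OHP+FUC held both the lowest and the highest library. The log2 fold change was -0.10 (95% interval -0.39 to 0.19), 0.017 after median ratio rescaling and 0.14 after adjustment for GC and length, so its sign depended on the scaling. The ratio of Odc1 to Amd1 in FPKM was 0.510, 0.620 and 0.695 with L-OHP and 1.21, 1.15 and 1.11 with L-OHP+FUC. As listed, Odc1 was below Amd1 in each L-OHP library and above it in each L-OHP+FUC library. Reads listed under the copies of Amd1 named below are left out of this ratio, so the crossing of 1 is uncertain.

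Amd1 lies on chromosome 10 (40287458 to 40302186, minus strand), and its near-identical copies can take its reads. Amd2, a copy with 99.1% identity over its transcript, stood at 0.640 FPKM with L-OHP and 1.20 FPKM with L-OHP+FUC on average. The pseudogene Amd-ps3, with 99.9% identity, stood at 2.89 and 3.08 FPKM.

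Srm, spermidine synthase, lies on chromosome 4 (148591503 to 148594993, plus strand). Its values were 9.52, 11.3 and 8.21 FPKM with L-OHP and 13.1, 12.1 and 13.3 FPKM with L-OHP+FUC. The groups were apart, but L-OHP replicate 2 came within 1 FPKM of the lowest L-OHP+FUC library. Means were 9.69 ± 1.57 and 12.8 ± 0.615 FPKM (SD, 3 libraries), with a log2 fold change of 0.38 (SE 0.12) and of 0.26 (SE 0.091) after adjustment for GC and length.

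Sms, spermine synthase, differed least between the groups in log2 fold change, at 5.71, 6.04 and 6.42 FPKM with L-OHP and 5.71, 6.14 and 6.39 FPKM with L-OHP+FUC. The log2 fold change was 0.0043 (95% interval -0.20 to 0.21), and it was 0.11 after median ratio rescaling and 0.20 after adjustment for GC and length. Sms lies on the X chromosome (157443855 to 157492287, minus strand). Its pseudogene Sms-ps, also on the X chromosome and identical to the Sms transcript over all of its 1101 bases, was listed above Sms itself in every library, with means of 9.43 and 9.95 FPKM. Reads from the shared stretch cannot be assigned, so the level of Sms is uncertain. The ratio of Srm to Sms averaged 1.61 ± 0.303 (SD, 3 libraries) for L-OHP and 2.12 ± 0.158 for L-OHP+FUC.

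**Figure D2:**
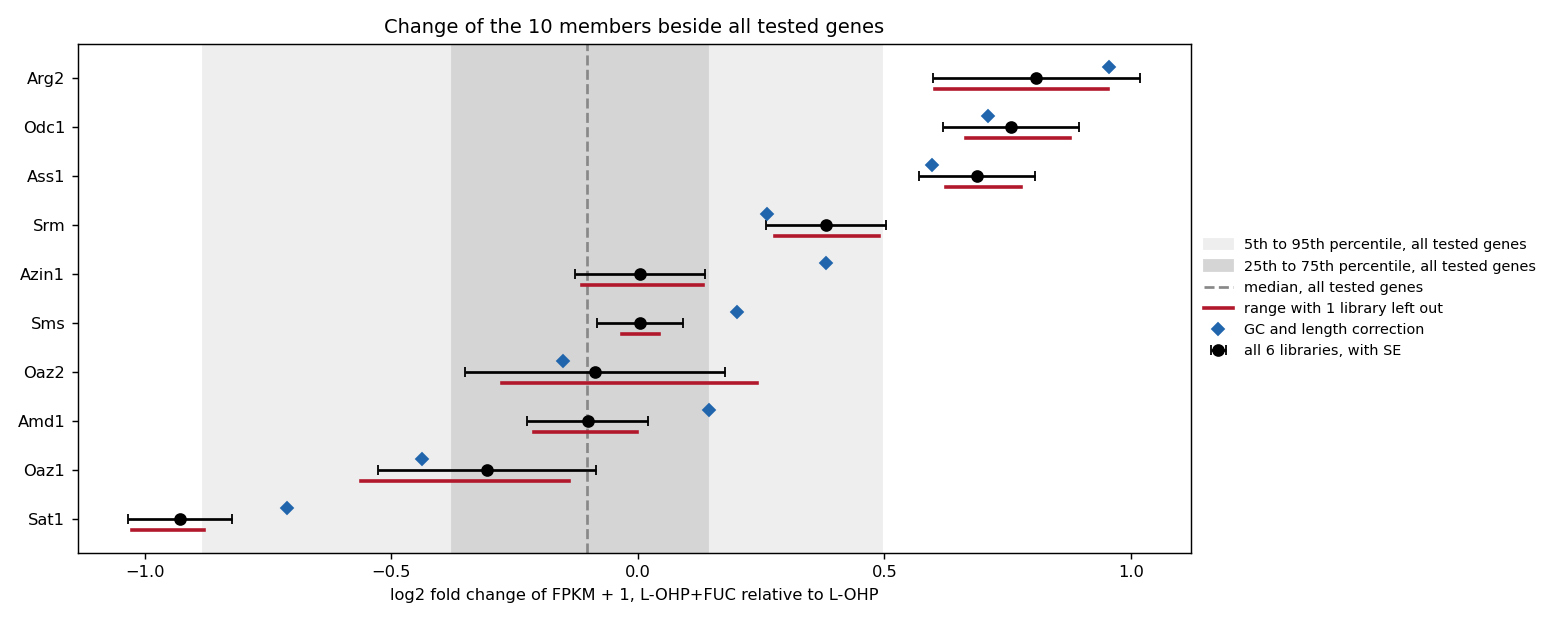
Log2 fold change of FPKM + 1, L-OHP+FUC relative to L-OHP (horizontal axis), for the 10 members: black points with SE from all 6 libraries, red lines the range with 1 library left out, blue diamonds after adjustment for GC and length. Grey bands show the 5th to 95th and 25th to 75th percentiles and the dashed line the median (-0.10) of all 12084 tested genes before that adjustment. They are the scale for the black points and not for the diamonds, since the median was 0.0093 after it. The black points of Arg2, Odc1 and Ass1 lie right of the bands and that of Sat1 left of them. Azin1 moves most under the correction.

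Oaz1, the main antizyme, lies on chromosome 10 (80826656 to 80829290, plus strand). It read 43.0, 36.1 and 44.6 FPKM with L-OHP and 29.1, 26.0 and 47.5 FPKM with L-OHP+FUC. In the L-OHP+FUC group, replicates 1 and 2 lay below every L-OHP library and replicate 3 above them all. The log2 fold change was -0.31 (95% interval -0.83 to 0.22), and leaving out 1 library moved it between -0.56 (without L-OHP+FUC replicate 3) and -0.14.

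Oaz2, a second antizyme, lies on chromosome 9 (65668001 to 65690300, plus strand). Its levels were 9.94, 10.8 and 10.2 FPKM with L-OHP and 12.8, 11.9 and 5.75 FPKM with L-OHP+FUC. Replicates 1 and 2 of L-OHP+FUC were above every L-OHP library and replicate 3 below them all, the reverse of the order of Oaz1. Without L-OHP+FUC replicate 3 the log2 fold change went from -0.086 to 0.24, and with all libraries kept it was 0.030 after median ratio rescaling, so its sign depended on that library and on the scaling. The ratio of Oaz1 to Oaz2 was 3.36 to 4.36 in the L-OHP libraries, 2.27 and 2.18 in L-OHP+FUC replicates 1 and 2, and 8.25 in replicate 3.

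The processed pseudogene Oaz1-ps, 99.3% identical to the Oaz1 transcript, followed the same library. It stood at 2.80, 2.18 and 1.47 FPKM with L-OHP and at 1.70, 1.83 and 5.91 FPKM with L-OHP+FUC. Reads may be exchanged between Oaz1 and this copy. Oaz2-ps, 93.8% identical to Oaz2, stood at 0.588 and 1.07 FPKM on average.

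**Figure D3:**
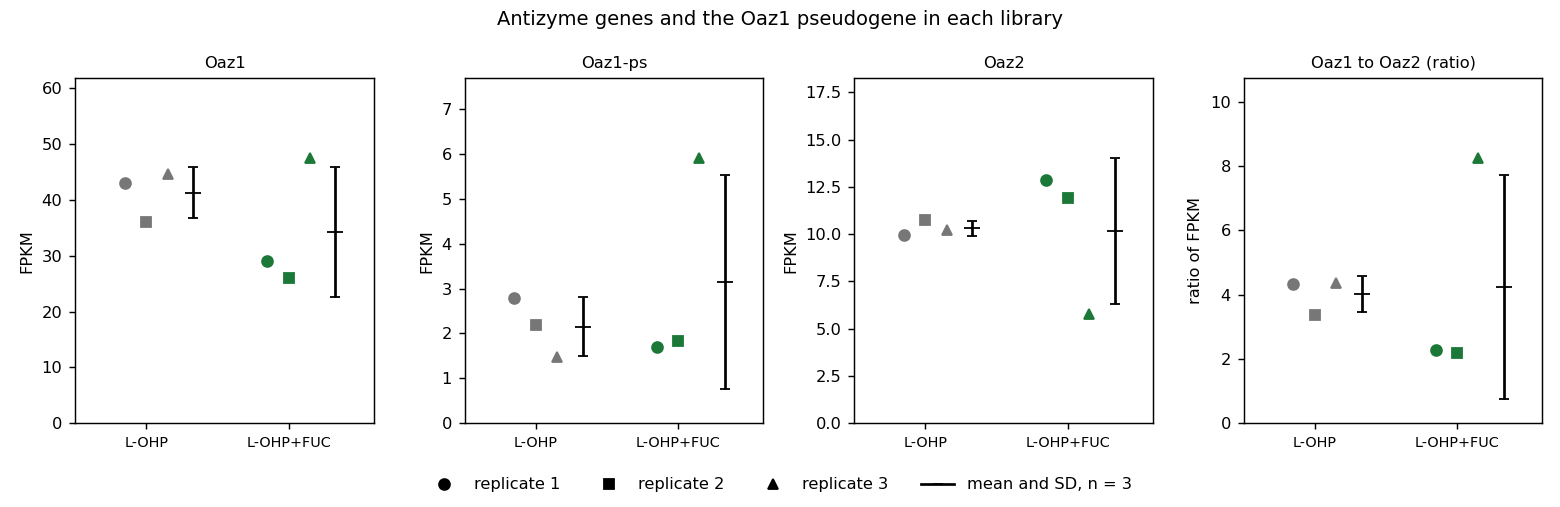
FPKM of Oaz1, Oaz1-ps and Oaz2 and the ratio of Oaz1 to Oaz2 (vertical axes, from 0) in each library, with symbols for replicates and bars for mean and SD of 3. The triangle of L-OHP+FUC (replicate 3) is the highest value of Oaz1, Oaz1-ps and the ratio and the lowest of Oaz2.

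Azin1, the antizyme inhibitor, lies on chromosome 15 (38487427 to 38519266, minus strand). It was listed at 31.1, 29.0 and 30.7 FPKM with L-OHP and at 25.3, 30.8 and 36.0 FPKM with L-OHP+FUC, with both extremes in the latter. The log2 fold change was 0.0052 (95% interval -0.31 to 0.32) and 0.38 (SE 0.084) after adjustment for GC and length. Its longest transcript has a GC content of 39.3%, at percentile 4.71 of tested genes. Amd1, Sms, Sat1 and Arg2, with a GC content of 41.4%, 43.5%, 43.8% and 46.1%, also had higher log2 fold changes after that adjustment than before it. The remaining members had lower ones, and the part of GC content in these values was not tested. Azin2, the other inhibitor, was below 0.4 FPKM in every library.

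Within each library, Odc1 was set against the mRNA of its regulators. The ratio of summed Oaz1 and Oaz2 to Odc1 was 7.67, 6.15 and 5.74 in the L-OHP libraries and 3.30, 2.72 and 3.34 in the L-OHP+FUC libraries, with no overlap. Azin1 to Odc1 stood at 4.51, 3.80 and 3.21 with L-OHP and at 1.99, 2.21 and 2.25 with L-OHP+FUC. These are ratios of mRNA per length, and the proteins were not measured. The ratios were taken from FPKM without the adjustment for GC and length. That adjustment moved the log2 fold change of Azin1 from 0.0052 to 0.38 and that of Odc1 from 0.76 to 0.71. It moved Oaz1 from -0.31 to -0.44 and Oaz2 from -0.086 to -0.15. The size of the difference in Azin1 to Odc1 thus depends on it.

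Sat1, spermidine/spermine N1-acetyltransferase, lies on the X chromosome (155213132 to 155216449, minus strand) and had the highest mean level of the members. It read 74.7, 60.9 and 74.7 FPKM in the L-OHP replicates, against 35.5, 35.7 and 37.5 FPKM for L-OHP+FUC. All L-OHP+FUC libraries lay within about 2 FPKM of each other and far below the lowest L-OHP library. Means were 70.1 ± 8.0 and 36.2 ± 1.12 FPKM (SD, 3 libraries), a mean 1.94 times as high with L-OHP. The log2 fold change was -0.93 (SE 0.11), between -1.02 and -0.88 with 1 library left out, and -0.71 (SE 0.085) after adjustment for GC and length. GENCODE M21 annotates protein-coding, retained-intron and nonsense-mediated decay transcripts for the gene, and Sat1 is known to be spliced into a decayed form when polyamines are low, which these values cannot separate.

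The ratio of Odc1 to Sat1, the enzymes that start synthesis and acetylation, was 0.0924, 0.125 and 0.128 in the L-OHP libraries. In L-OHP+FUC it was 0.359, 0.390 and 0.425, so the groups were wide apart, at 0.115 ± 0.0198 and 0.391 ± 0.0334 (SD, 3 libraries). Since Odc1 was higher and Sat1 lower without overlap, this ratio could not overlap and restates those differences.

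**Figure D4:**
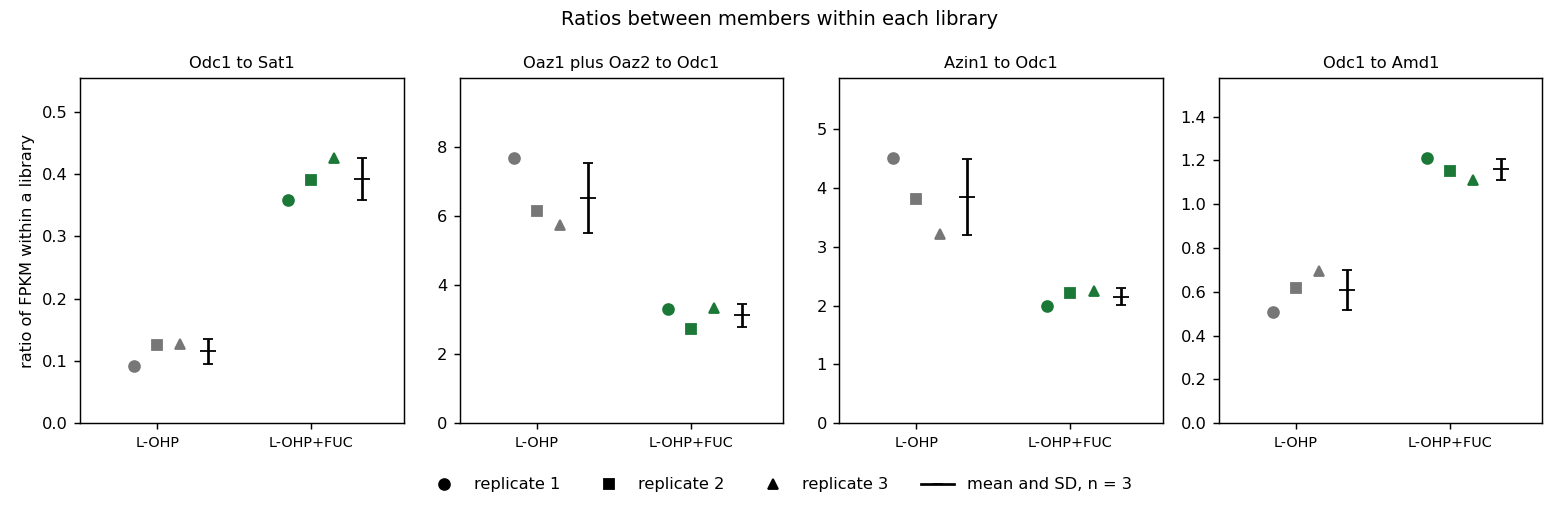
Ratios of FPKM within a library (vertical axes, from 0) for Odc1 to Sat1, summed antizymes to Odc1, Azin1 to Odc1 and Odc1 to Amd1, with symbols for replicates and bars for mean and SD of 3. Odc1 stands higher in L-OHP+FUC relative to each of the other genes in all 4 panels, with no overlap between the groups. All 4 ratios hold Odc1, whose own groups did not overlap, so they are not separate results. They are from FPKM without the adjustment for GC and length.

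In order of mean FPKM over all libraries, the members ran Sat1 (53.2), Ass1 (49.6), Oaz1 (37.7), Azin1 (30.5), Amd1 (12.7), Srm (11.3), Odc1 (11.1), Oaz2 (10.2), Sms (6.07) and Arg2 (5.27). The order differed between the groups, with Sat1 first with L-OHP and Ass1 first with L-OHP+FUC. Ranges over the 6 libraries overlapped between all neighbours in this order except Azin1 and Amd1. The median log2 fold change of the members was 0.0047, beside -0.10 over all tested genes. In the authors' deposited table, none of the 10 members was marked significant, a mark carried by 2.65% of all its 55401 genes. That share includes genes listed at 0, 35234 to 36744 in a library, and was not taken over tested genes alone. The fold column gave 0.517 for Sat1 and 1.94 for Arg2, the members farthest from 1.

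Of the 5904 tested genes outside the members whose mean reached 5 FPKM, those whose profile over the 6 libraries lay nearest to Sat1 were Ms4a7, Xdh and Gm22357. Their Euclidean distances in log2 deviations from the gene mean were 0.136 for Ms4a7 and Xdh and 0.153 for Gm22357. Nearest to Odc1 were Ednrb (0.178), Calu (0.279) and Cav2 (0.280). All share the 6 libraries and their depth with the members.

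Other genes of the pathway came from a list of 65, of which 43 passed the filter and 22 were too low to test. The list was chosen with earlier results of these data known, so its counts and p-values do not come from a blind choice. By limma, 8 rose, 3 fell and 32 did not pass. That is 25.6% of those tested, against 27.0% of all 12084 tested genes, of which 7.67% were higher and 19.3% lower. The shares over all tested genes are also the scale for the counts of single lists below, which hold few genes each. The median log2 fold change of the 43 was 0.11, beside -0.10 over all. After quantile normalization 10 were higher and 1 lower, and the total was 3 without L-OHP replicate 1 or without L-OHP+FUC replicate 2 and 5 without L-OHP+FUC replicate 1.

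In the hypusine pathway, which builds an amino acid from spermidine into the translation factor eIF5A, 2 of 4 tested genes rose and 2 did not pass. Dohh, the hydroxylase of the last step, stood at 9.47, 11.0 and 9.44 FPKM with L-OHP and 21.1, 14.0 and 16.6 FPKM with L-OHP+FUC, with no overlap. It rose by a log2 fold change of 0.72 (SE 0.15, limma adjusted p = 0.0181) and lost its call without L-OHP replicate 1 (adjusted p = 0.0614). Over 3887 bases Dohh overlaps Gm48551, a gene annotated as protein-coding on the same strand and listed at a mean of 0.261 FPKM. Reads of that overlap cannot be told apart. Dhps, which transfers the spermidine part, rose from 9.83 ± 0.308 to 12.2 ± 0.527 FPKM (mean ± SD, 3 libraries; limma adjusted p = 0.0400), a call lost when any library was left out (adjusted p = 0.0636 to 0.126), with the replicate block (0.0791) and after adjustment for GC and length (0.10). Eif5a, the substrate, stood at 116 ± 16.1 and 157 ± 20.9 FPKM (log2 fold change 0.43, SE 0.14, limma adjusted p = 0.0622, and 0.0364 after median ratio rescaling).

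Of the arginine and ornithine carriers and sensors, 2 of 8 tested rose, 1 fell and 5 did not pass. Slc7a1, the main cationic amino acid importer, stood at 7.21, 8.67 and 7.02 FPKM with L-OHP and 10.9, 10.2 and 10.3 FPKM with L-OHP+FUC (log2 fold change 0.41, SE 0.10, limma adjusted p = 0.0264). With a single library dropped it passed only in the fit lacking L-OHP replicate 2 (adjusted p up to 0.0901 in the others) and it did not pass with the replicate block (0.0584). Castor1, the cytosolic arginine sensor upstream of mTORC1, rose from 1.03 ± 0.126 to 1.72 ± 0.0687 FPKM (mean ± SD, 3 libraries; limma adjusted p = 0.0202; 0.0875 after adjustment for GC and length). Without L-OHP replicate 1, L-OHP+FUC replicate 1 or L-OHP+FUC replicate 2 it did not pass (adjusted p up to 0.0707).

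Slc38a9, the lysosomal arginine sensor, fell from 2.38 ± 0.0834 to 1.52 ± 0.0815 FPKM (mean ± SD, 3 libraries; log2 fold change -0.43, limma adjusted p = 0.0159). Adjustment for GC and length left it at -0.058 (adjusted p = 0.722), after quantile normalization its adjusted p was 0.142, and it did not pass without L-OHP replicate 1 or L-OHP+FUC replicate 2 (up to 0.0658). The importer Slc7a2 (0.796 and 0.953 FPKM, limma adjusted p = 0.546, and 0.0354 after adjustment for GC and length) and the exchanger Slc7a7 (14.4 and 15.2 FPKM, limma adjusted p = 0.664) did not pass.

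Ornithine also feeds proline. Of 5 tested ornithine and proline enzymes 1 rose and 4 did not pass. All 5 had a positive log2 fold change (median 0.34, beside -0.10 over all tested genes). So did all 6 tested genes of synthesis and methylthioadenosine salvage, and 26 of the 43 tested further genes. For scale, the log2 fold change of Sms, 0.0043, lay at or above that of 61.3% of all tested genes. Aldh18a1, which begins synthesis of ornithine and proline from glutamate, rose from 7.41 ± 1.34 to 11.0 ± 1.01 FPKM (mean ± SD, 3 libraries; log2 fold change 0.52, SE 0.14, limma adjusted p = 0.0337). It overlaps the pseudogene Gm15801 on the same strand, and of the fits with 1 library dropped it passed only in the 1 lacking L-OHP replicate 2 (adjusted p up to 0.110 in the others). Oat, ornithine aminotransferase, stood at 22.3 ± 2.84 and 27.0 ± 1.18 FPKM (limma adjusted p = 0.106), passing after median ratio rescaling (0.0434) and adjustment for GC and length (0.0408).

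In S-adenosylmethionine supply, 1 of 3 tested genes rose. Ahcy, which clears S-adenosylhomocysteine, rose from 7.18 ± 0.773 to 10.6 ± 0.678 FPKM (mean ± SD, 3 libraries; log2 fold change 0.51, SE 0.10, limma adjusted p = 0.0155) and did not pass without L-OHP replicate 1 or L-OHP+FUC replicate 1 (adjusted p up to 0.0594). Mat2a, which makes S-adenosylmethionine, stood at 27.2 ± 8.31 and 19.7 ± 1.10 FPKM (limma adjusted p = 0.180). None of 6 tested genes of synthesis and methylthioadenosine salvage passed. Mtap, which recycles the by-product of Srm and Sms, stood at 8.67 ± 0.795 and 10.2 ± 0.553 FPKM (limma adjusted p = 0.134), and passed after median ratio rescaling (0.0434) and adjustment for GC and length (0.0332).

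None of 2 tested genes of acetylation and oxidation, 2 of transport and 5 of arginine use and recycling passed, and the other antizyme and inhibitor, Oaz3 and Azin2, were too low to test. Paox, which oxidizes the products of Sat1, stood at 2.79, 2.25 and 3.00 FPKM with L-OHP and 2.03, 1.92 and 1.76 FPKM with L-OHP+FUC, without overlap (log2 fold change -0.34, SE 0.11, limma adjusted p = 0.0622). Smox, which oxidizes spermine directly, ranged from 4.74 to 6.86 FPKM with L-OHP and from 6.04 to 6.87 FPKM with L-OHP+FUC (log2 fold change 0.19, 95% interval -0.13 to 0.50, limma adjusted p = 0.321). Atp13a2, the lysosomal polyamine exporter, was the most abundant of these at 73.0 ± 15.9 and 82.5 ± 5.81 FPKM (limma adjusted p = 0.384). Atp13a3 stood at 7.97 and 7.22 FPKM (log2 fold change -0.13, adjusted p = 0.591), but passed as higher after adjustment for GC and length (0.33, adjusted p = 0.0407). Sat2, a relative of Sat1, was below 0.5 FPKM in every library.

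In the network of MYC, a transcription factor known to drive Odc1, 2 of 8 tested genes rose, 2 fell and 4 did not pass. Myc stood at 1.64, 1.25 and 1.65 FPKM with L-OHP and 2.35, 2.88 and 2.90 FPKM with L-OHP+FUC (log2 fold change 0.56, SE 0.12, limma adjusted p = 0.0166), a call lost without L-OHP+FUC replicate 2 (adjusted p = 0.0668). Mlx, the MAX-like partner of the glucose-sensing factors MondoA and ChREBP, rose from 13.9 ± 0.411 to 19.5 ± 1.56 FPKM (mean ± SD, 3 libraries; limma adjusted p = 0.0142) and did not pass without L-OHP replicate 1 or L-OHP+FUC replicate 2 (adjusted p up to 0.0609). Mga, a MAX partner that represses, fell from 6.02, 5.30 and 7.19 FPKM to 1.48, 2.36 and 3.14 FPKM (log2 fold change -1.13, SE 0.20, limma adjusted p = 0.0119). It kept its call with each library left out, and its log2 fold change was -0.56 after adjustment for GC and length. Mxd4, an antagonist of MYC, fell from 3.37 ± 0.423 to 2.16 ± 0.237 FPKM (mean ± SD, 3 libraries; limma adjusted p = 0.0253), with adjusted p = 0.0536 with the replicate block, 0.137 after quantile normalization and up to 0.0838 with 1 library left out.

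**Figure D5:**
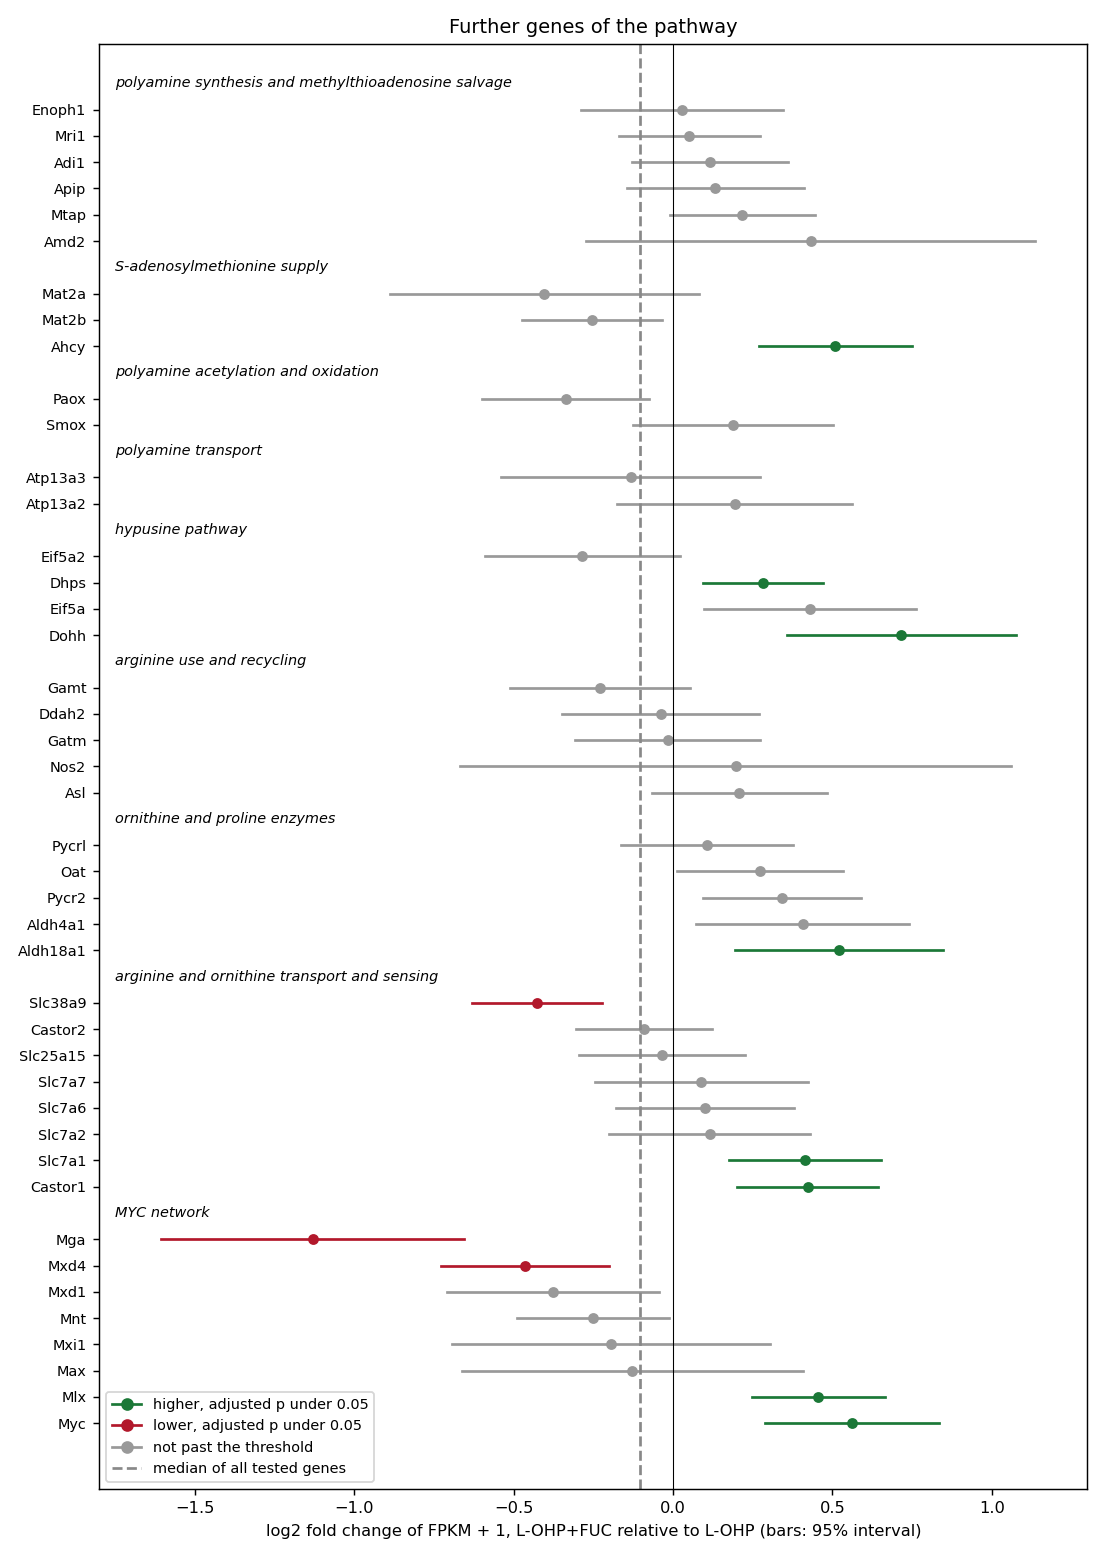
Log2 fold change of FPKM + 1 with 95% intervals (horizontal axis) for the 43 tested further genes, grouped by role, green and red where limma's adjusted p was under 0.05. The 8 green genes are Ahcy, Dhps, Dohh, Aldh18a1, Slc7a1, Castor1, Mlx and Myc, the 3 red ones Slc38a9, Mga and Mxd4, and the dashed line is the median of all tested genes (-0.10).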

How the data were processed

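RNA of the 6 macrophage samples was sequenced after removal of ribosomal RNA and random priming, per the labels' protocols. The submitters' processing notes name HISAT2, StringTie, DESeq2, limma, bcl2fastq 2.0 and the build mm10 without their roles, while strand use and annotation release were not found in those notes, the labels or the table. Per the file headers the authors deposited FPKM for each library. Entries of 0.0001 stood for 0 and were read as 0. The deposited fold column was the authors' ratio of mean FPKM and the deposited log2 column its log2. The deposited p-value and q-value columns of the authors were not used.

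FPKM are not counts, so log2(FPKM + 1) values were fitted in limma 3.58.1 under R 4.3.3. Group was the single term and the prior variance followed the mean level. Tests were two-sided, with p-values adjusted by Benjamini-Hochberg over 12084 genes and a threshold of 0.05. A gene was kept when 3 or more of the 6 libraries held 0.5 FPKM or more. The code was tested on simulated data. The spacing of steps between low FPKM values gave the implied depth, but too few values were whole reads for counts to be recovered, so no count-based test was run. GENCODE M21, on GRCm38 as mm10 is, supplied coordinates and GC content for the 99.5% of rows whose gene ID it holds.

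The members, the further gene lists and the markers were chosen with earlier results of these data known. Member differences are therefore given as a description, with no test. Named from the lists were every gene past the threshold and 20 genes set out by name. The alternatives were another pseudocount and filters, median ratio rescaling, quantile normalization, a loess correction for GC content and transcript length (span 0.3), moderation without the trend, a block for replicate number, a threshold of 0.01, protein-coding genes only and leaving out each library. Same-numbered libraries were not treated as pairs.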

Additional observations from a re-analysis of the deposited data

How the results depend on the processing

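Of 12084 genes tested with limma, 3262 passed (927 higher, 2335 lower). The split was 1581 higher and 1680 lower after median ratio rescaling, 1565 and 1359 after quantile normalization and 1389 and 1437 after the GC and length correction. The count was 2081 without a filter, 1720 at a mean of at least 5 FPKM, 637 at a threshold of 0.01, 1448 with the GC and length correction and the replicate block together, and 1101 to 3377 with 1 library left out. For the further genes of the pathway, 11 of 43 passed. That count was 6 at a mean of at least 5 FPKM, where 23 were tested, 3 with the GC and length correction and the replicate block, and 3 to 15 with 1 library left out. At a threshold of 0.01, limma gave 0 of the 43, against 19 at an unadjusted p under 0.05, a level that 5048 of all 12084 tested genes reached. With the replicate block alone, 8 of the further genes passed (6 higher, 2 lower), and 2316 of all tested genes. Deviations from the group means correlated at -0.04, -0.07 and 0.08 between libraries of the same number, and not every library correlated best with its own number, so the numbers were not taken as pairs. Of 160 member values under alternatives, 149 moved by less than the SD between replicates. That count includes values that could not move. The other filters, the replicate block, moderation without the trend and protein-coding genes only leave a member's log2 fold change as it is. The GC and length correction with the block repeats the value of the correction alone. The log2 fold changes of Sat1, Odc1, Ass1, Arg2 and Srm kept their sign under every alternative that can change them. The cause of these shifts was not tested. Implied depth limits what can be said of genes under about 0.5 FPKM, including Arg1 and Azin2.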
